A study of Mus musculus with 15 samples.

Results

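The matricellular proteins studied here are 10 secreted proteins, encoded by Tnc, Spp1, Postn, Thbs1, Thbs2, Thbs4, Sparc, Ccn1, Ccn2 and Cthrc1. They were taken as the array probes whose accession maps to one of these symbols. All 10 were found among 17178 named genes on the array, with 15 probes between them. Each of the 15 probes passed the filter on dim signal, and all 10 genes were therefore measured. Matricellular proteins are placed in the extracellular matrix but serve less as scaffold than as signals: they bind integrins, syndecans, growth factors and proteases and change how cells hold on to the matrix. In the healthy adult heart many, but not all, are made at a low level, and they are known to appear in fibroblasts, macrophages and stressed muscle cells after injury or pressure load.

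The heart apex of male C57BL6 mice aged 10 weeks was sampled 3 days after the aorta had been narrowed surgically (transverse aortic constriction, TAC), which puts the left ventricle under pressure, or after a sham operation. Every mouse carried cre under a myosin heavy chain promoter, active in the heart in muscle cells. Mice of the Cre groups carried cre alone (labelled MHC-cre). In the KO groups (labelled MHC-cre-klf4) the gene for the transcription factor Klf4 was deleted as well, so no group was free of cre. The arrays numbered 4 for Cre sham, 3 for Cre TAC, 4 for KO sham and 4 for KO TAC. A level here is log2 of an array's processed signal less that array's 75th percentile, from 1-colour hybridisation.

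Labels and libraries limited the comparisons. In the authors' deposited value table, 14 of the 15 scanned arrays could be recognised (rank correlation 0.99999 or more), each filed under the opposite genotype and the same operation. Here groups keep the scanner files' labels ("filed as Cre", "filed as KO"), and the sign of a genotype difference turns if the table is right. Klf4 itself did not tell the genotypes apart: its level was 3.72 to 4.30 on Cre sham, 3.26 to 4.49 on KO sham, 3.99 to 4.25 on Cre TAC and 3.52 to 4.50 on KO TAC arrays. The KO minus Cre difference of Klf4 was -0.04 ± 0.27 (SE, limma adjusted p = 1) after sham and 0.02 ± 0.29 (adjusted p = 0.98) after TAC. Whether its probe lies in the deleted part is not known here, so the deletion was not checked by these values. The description field gives 7 arrays the other operation. With groups taken from it, limma called 0 of 25787 features and 0 of the 10 genes after TAC (0 of the 10 also at an unadjusted p under 0.05), against 6971 features (27.0%) and all 10 by title. KO TAC replicate 4, matched to no column, stood apart in profile and brightness. Its probes ranked less like those of other arrays (median rank correlation 0.788) than did the probes of the other 14 (0.955 to 0.979). It had 95.9% of probes well above background and a median of 445.4, where the other 14 had 65.6% to 75.4% and 83.7 to 141.6. Among sham arrays, KO sham replicates 2 and 3 were the highest for most, not all, of the matricellular genes, as described below. Myh6, Myh7 and Actc1, which define heart muscle, were well above background on all 15 arrays.

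Promoters were looked up for the 10 genes in a RefSeq table (GRCm38.p6), and 7 had an entry: Tnc, Spp1, Postn, Thbs2, Thbs4, Sparc and Ccn1. No entry was found for Thbs1, Ccn2 and Cthrc1. The 250 bases before the outermost start were searched on both strands for GGAATG, the core bound by TEAD factors, which are the DNA-binding partners of YAP. They were also searched for the TATA box, spelled TATAAA. The other searches were for the AP-1 site, spelled TGANTCA, for the SMAD core, spelled CAGAC, and for the CArG box bound by SRF. The TEAD letters stood in 2 of 7 promoters, Ccn1 and Thbs4, against 12.6% of 32851 promoters of the same length. The TATA letters stood in 4 of 7 (Tnc, Spp1, Thbs2 and Ccn1) against 12.4%, and CAGAC in 5 of 7 against 42.2%. AP-1 letters and the CArG box stood in 0 of 7, against 6.75% and 1.47% of all promoters. Shown here are the promoters of Tnc and Spp1, among the genes with the largest rises after TAC, and of Ccn1 and Thbs4, which hold the TEAD letters. Capitals mark matches to the TEAD and TATA letters on either strand, and each sequence runs to the base before the start. They lie at chr4:64047016-64047265 (Tnc, minus strand), chr5:104434861-104435110 (Spp1, plus strand), chr3:145649986-145650235 (Ccn1, minus strand) and chr13:92794819-92795068 (Thbs4, minus strand).
Tnc: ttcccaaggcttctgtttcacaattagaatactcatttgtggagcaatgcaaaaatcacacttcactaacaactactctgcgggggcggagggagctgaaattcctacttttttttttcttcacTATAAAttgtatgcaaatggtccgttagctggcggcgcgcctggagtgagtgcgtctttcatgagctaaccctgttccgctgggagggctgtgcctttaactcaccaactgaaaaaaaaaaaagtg
Spp1: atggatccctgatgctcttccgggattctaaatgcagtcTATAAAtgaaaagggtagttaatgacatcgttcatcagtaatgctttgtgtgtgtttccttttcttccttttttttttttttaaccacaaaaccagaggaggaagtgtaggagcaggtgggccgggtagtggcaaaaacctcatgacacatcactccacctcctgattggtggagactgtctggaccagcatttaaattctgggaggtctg
Ccn1: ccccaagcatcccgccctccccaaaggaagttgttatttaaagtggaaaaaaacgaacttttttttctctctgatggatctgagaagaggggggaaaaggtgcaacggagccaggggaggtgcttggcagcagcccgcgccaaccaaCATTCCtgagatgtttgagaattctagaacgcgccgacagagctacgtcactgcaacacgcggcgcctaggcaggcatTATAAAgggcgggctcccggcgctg
Thbs4: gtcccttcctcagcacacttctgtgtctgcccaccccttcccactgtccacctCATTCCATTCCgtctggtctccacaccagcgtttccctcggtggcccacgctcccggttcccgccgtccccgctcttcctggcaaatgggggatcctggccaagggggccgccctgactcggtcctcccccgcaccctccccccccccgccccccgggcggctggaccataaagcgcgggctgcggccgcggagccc
In Ccn1 the TEAD letters begin 103 bases and the TATA letters 25 bases before the start. Thbs4 holds the TEAD letters at 197 and 192 bases, which overlap each other. The TATA letters begin 126 bases before the start in Tnc and 211 bases before it in Spp1. A match of letters describes the sequence only.

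After TAC, all 10 matricellular genes were higher than after sham when the responses of both genotypes were averaged. The same call was made for 13.3% of 25787 features. This comparison stays the same if the genotype labels of all arrays are exchanged together. KO TAC replicate 4 was recognised in no column of the value table, so its genotype there is not known. Without it all 10 genes remained called, and 18% of features were called higher. With every array in the fit, the rises ranged from 0.62 (Thbs2) to 5.63 (Tnc) on the log2 scale for the 9 genes well above background on all 15 arrays. Cthrc1, not well above background on 6 of 8 sham arrays, is given below as a bound. The median of the 10 genes was 2.71, while the median over all features was 0.04. Tnc and Spp1 rose by 49.5-fold and 43.5-fold in the fit. Over 31 alternative settings, description field aside, the log2 rise was 4.38 to 6.28 for Tnc and 4.76 to 6.22 for Spp1. Postn, Thbs1, Thbs4 and Ccn2 rose by 4.41-fold to 8.93-fold, and Ccn1, Sparc and Thbs2 by 1.54-fold to 2.77-fold. In RNA of whole tissue, more cells that make a transcript and more transcript per cell cannot be told apart.

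**Figure D1:**
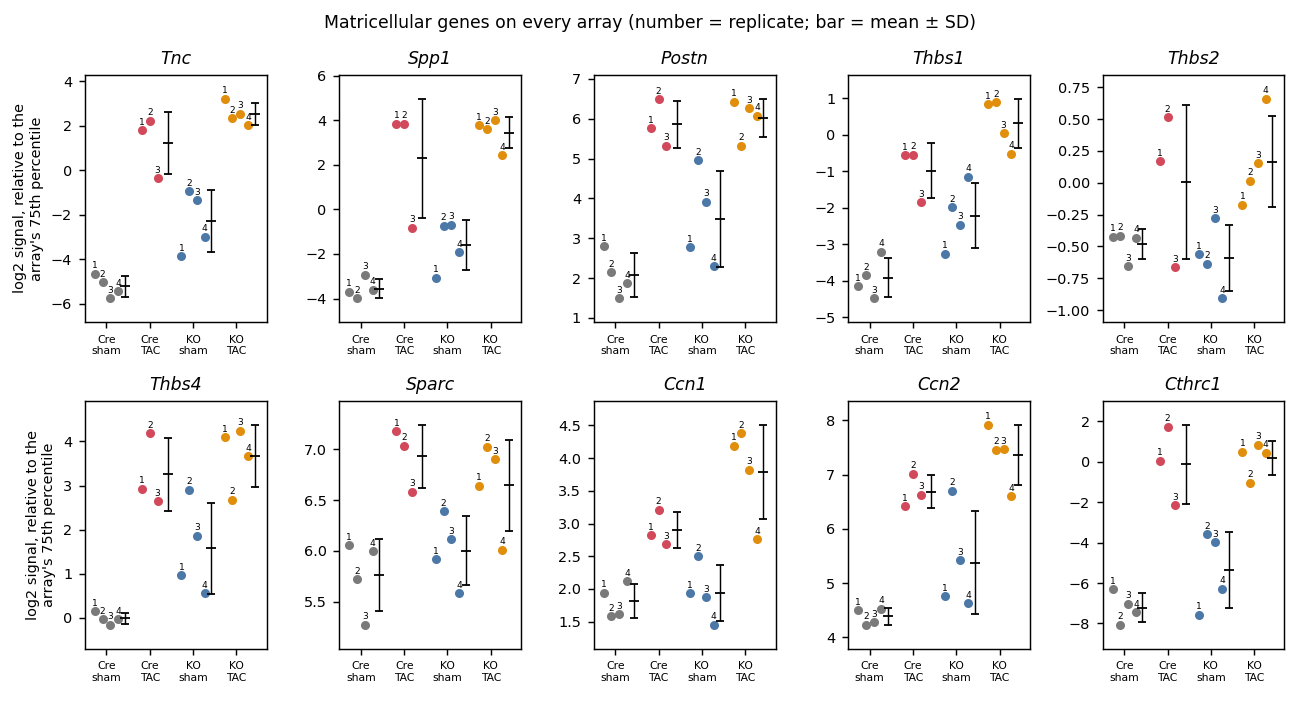
Level of each matricellular gene (its brightest probe) on every array, as log2 signal relative to the array's 75th percentile. Points are arrays with their replicate number, coloured by group, and the bar beside each group is its mean ± SD (3 arrays in Cre TAC, 4 in each other group). For Tnc, Postn, Ccn1 and Cthrc1 the lowest TAC array lies above the highest sham array, and for the other genes at least 1 sham array reaches the TAC range.

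Among the proteins that loosen adhesion, Tnc encodes tenascin C, a large glycoprotein of embryonic and injured tissue that binds integrins and syndecan-4. On the Cre sham arrays it read -4.64, -5.04, -5.75 and -5.43 (replicates 1 to 4), and on the Cre TAC arrays 1.81, 2.23 and -0.36. On the KO sham arrays it read -3.86, -0.94, -1.34 and -2.98, and on the KO TAC arrays 3.22, 2.35, 2.55 and 2.02. All 7 TAC arrays were above all 8 sham arrays, with Cre TAC replicate 3 lowest among TAC and KO sham replicates 2 and 3 highest among sham. The processed signals of Tnc on Cre sham arrays were well above background but dim, at 21.67 to 46.36. Tnc rose by 5.63 ± 0.48 (SE, limma adjusted p = 2.2e-05), by 6.44 ± 0.71 in arrays filed as Cre (adjusted p = 0.0012) and by 4.81 ± 0.66 in arrays filed as KO (adjusted p = 0.00034). A second, dimmer probe of Tnc was not well above background on any Cre sham array and was at least 20.1-fold higher on Cre TAC arrays (adjusted p over probes = 0.0012). Such a bound sets the bright group against the lowest signal of any probe that counts as well above background on each array of the dim group. Where the measured signal of the dim array was higher than that floor, the measured signal was used. A probe can exceed this floor without counting as well above background, so "at least" is meant in that sense only. For Tnc the bound was 35.4-fold without Cre TAC replicate 3 and at least 14.9-fold without any other single array. Here and below, an adjusted p beside a bound is that of the limma fit to the measured signals, not a test of the bound.

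Spp1 encodes osteopontin, a phosphorylated ligand of integrins and CD44 that activated macrophages make in abundance. Cre sham arrays read -3.69, -3.97, -2.94 and -3.61, and Cre TAC arrays 3.84, 3.84 and -0.82. The KO sham values were -3.06, -0.72, -0.69 and -1.93, and KO TAC arrays 3.79, 3.59, 3.99 and 2.42. Within each genotype the TAC and sham arrays did not overlap, but Cre TAC replicate 3 lay below KO sham replicates 2 and 3. Spp1 rose by 5.44 ± 0.66 (SE, adjusted p = 8.5e-05). Leaving out Cre TAC replicate 3, the rise was 6.22 ± 0.40 averaged and, in arrays filed as Cre, 7.39 in place of 5.84.

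Postn encodes periostin, a ligand of integrins that helps crosslink collagen and marks activated fibroblasts. It read 2.81, 2.15, 1.50 and 1.88 on Cre sham arrays and 5.77, 6.50 and 5.33 on Cre TAC arrays. KO sham arrays read 2.77, 4.96, 3.92 and 2.30, and KO TAC arrays 6.42, 5.32, 6.26 and 6.08. All TAC arrays were above all sham arrays, with KO sham replicate 2 the highest sham array and KO TAC replicate 2 the lowest TAC array. The averaged rise was 3.16 ± 0.38 (SE, adjusted p = 8.1e-05), with 3.78 ± 0.56 filed as Cre (adjusted p = 0.0023) and 2.54 ± 0.51 filed as KO (adjusted p = 0.0034).

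Cthrc1 encodes a secreted protein with a short collagen repeat that is known from injured arteries and activated fibroblasts. On the Cre sham arrays it read -6.32, -8.06, -7.03 and -7.45, none of them well above background. Cre TAC arrays read 0.06, 1.74 and -2.15. For KO sham the values were -7.56, -3.57, -3.99 and -6.29, of which replicates 2 and 3 were well above background, and KO TAC arrays read 0.51, -1.04, 0.85 and 0.46. All TAC arrays were above all sham arrays. Cthrc1 was at least 73.5-fold higher on Cre TAC than on Cre sham arrays. The measured means were -0.11 ± 1.95 (SD, n = 3) and -7.21 ± 0.73 (SD, n = 4), and their difference had a limma adjusted p of 0.0020. The bound was 149-fold without Cre TAC replicate 3, 38.6-fold without Cre TAC replicate 2 and 65.9-fold to 85.7-fold without any other single array. In arrays filed as KO it rose by 5.55 ± 0.93 (SE, adjusted p = 0.0011). The averaged value of 6.32 ± 0.68 (adjusted p = 4.8e-05) rests on dim sham signals: it was 3.34 after normexp background correction with quantile normalization and 4.28 with the authors' deposited values.

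Thbs1, Thbs2 and Thbs4 encode thrombospondins, calcium-binding glycoproteins that form trimers or pentamers and interact with CD36, CD47 and integrins. Thrombospondin 1, an activator of latent TGF-beta and an inhibitor of vessel growth, read -4.14, -3.84, -4.48 and -3.21 on Cre sham arrays and -0.55, -0.54 and -1.85 on Cre TAC arrays. KO sham arrays read -3.26, -1.99, -2.46 and -1.15, and KO TAC arrays 0.84, 0.90, 0.05 and -0.52. The highest sham value was that of KO sham replicate 4, above Cre TAC replicate 3. Thbs1 rose by 2.74 ± 0.35 (SE, adjusted p = 0.00013), and a dimmer second probe by 3.14 ± 0.32. The dimmest of its 3 probes was not well above background on any Cre sham array and was at least 4.90-fold higher on Cre TAC arrays (adjusted p over probes = 0.0012), or 4.06-fold to 6.12-fold with single arrays left out.

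Thrombospondin 4, which in heart muscle is linked to the stress response of the endoplasmic reticulum, showed flat values on Cre sham but not KO sham arrays by its brighter probe. Thbs4 read 0.16, -0.03, -0.15 and -0.03 on Cre sham arrays and 2.93, 4.19 and 2.65 on Cre TAC arrays. KO sham arrays read 0.97, 2.91, 1.86 and 0.56, and KO TAC arrays 4.09, 2.68, 4.25 and 3.67. KO sham replicate 2 was above both Cre TAC replicate 3 and KO TAC replicate 2. The averaged rise was 2.69 ± 0.37 (SE, adjusted p = 0.00019), and a second probe gave 3.25 ± 0.44. On that dimmer probe the Cre sham arrays were less flat, at -3.09 to -2.23 (SD 0.39), and the KO sham arrays had an SD of 1.45.

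Thrombospondin 2, a regulator of collagen fibre assembly and matrix turnover, moved least. Thbs2 read -0.42, -0.42, -0.66 and -0.43 on Cre sham arrays and 0.17, 0.51 and -0.66 on Cre TAC arrays, so the Cre groups overlapped. On KO sham arrays it read -0.56, -0.63, -0.28 and -0.91, and on KO TAC arrays -0.17, 0.02, 0.15 and 0.66. Its averaged rise of 0.62 ± 0.18 (SE, adjusted p = 0.023) lost the call without Cre TAC replicate 1, Cre TAC replicate 2 or KO sham replicate 4 (adjusted p = 0.059, 0.075 and 0.050). In arrays filed as Cre, Thbs2 differed by 0.49 ± 0.27 (adjusted p = 0.39). In arrays filed as KO it rose by 0.76 ± 0.25 (adjusted p = 0.044), but this call was lost in 20 of 32 alternative settings. Among these were 11 of the 15 settings that left out a single array. It was lost with slide as a block (adjusted p = 0.059), with the replicate number as a block (adjusted p = 0.079) and without KO TAC replicate 4 (0.59, adjusted p = 0.079).

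Ccn1 and Ccn2, formerly Cyr61 and Ctgf, encode modular proteins that bind integrins and heparan sulphate and are standard targets of YAP and SRF signalling. Ccn2 read 4.50, 4.24, 4.28 and 4.53 on Cre sham arrays and 6.42, 7.02 and 6.63 on Cre TAC arrays. Its KO sham values were 4.76, 6.70, 5.43 and 4.63, and KO TAC arrays 7.92, 7.46, 7.47 and 6.60. KO sham replicate 2 reached the TAC range and exceeded KO TAC replicate 4. Ccn2 rose by 2.14 ± 0.29 (SE, adjusted p = 0.00019).

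Ccn1 read 1.94, 1.59, 1.61 and 2.12 on Cre sham arrays and 2.82, 3.21 and 2.69 on Cre TAC arrays. In KO sham it read 1.93, 2.50, 1.87 and 1.46, and KO TAC arrays 4.19, 4.38, 3.82 and 2.76. All TAC arrays were above all sham arrays, and 3 KO TAC arrays lay above the others, with KO TAC replicate 4 inside the Cre TAC range. The averaged rise was 1.47 ± 0.24 (SE, adjusted p = 0.00062) and that filed as KO 1.85 ± 0.32 (adjusted p = 0.0015). In arrays filed as Cre the difference of 1.09 ± 0.35 missed the threshold (adjusted p = 0.092), although the Cre groups did not overlap, and it was called without KO TAC replicate 4 (adjusted p = 0.013).

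Sparc encodes osteonectin, a collagen-binding protein needed for procollagen processing. Its values were 6.06, 5.72, 5.27 and 6.0 on Cre sham arrays and 7.18, 7.03 and 6.58 on Cre TAC arrays. KO sham arrays read 5.92, 6.39, 6.12 and 5.58, and KO TAC arrays 6.64, 7.03, 6.90 and 6.01. KO TAC replicate 4 lay below 3 sham arrays. The averaged rise was 0.91 ± 0.19 (SE, adjusted p = 0.0038), and the second probe gave 1.07 ± 0.17 (adjusted p over probes = 0.00061). In arrays filed as Cre it was 1.17 ± 0.28 (adjusted p = 0.029), a call that was lost without Cre sham replicate 2 or 3 or Cre TAC replicate 1 or 2 (adjusted p = 0.073, 0.092, 0.13 and 0.15). In arrays filed as KO the difference was 0.64 ± 0.26 (adjusted p = 0.099), and 0.85 (adjusted p = 0.015) without KO TAC replicate 4. The second probe was called there (0.75 ± 0.24, adjusted p over probes = 0.036).

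Counted by genotype, 8 of 10 matricellular genes rose in arrays filed as Cre, where 4.30% of features were called higher, and 9 of 10 in arrays filed as KO, where 10.6% were. The genes outside the calls were Ccn1 and Thbs2 among arrays filed as Cre and Sparc, by its brighter probe, among those filed as KO. All TAC arrays were above all sham arrays for 4 of 10 genes, a pattern of 3.74% of features. TAC and sham arrays filed as Cre were apart, with TAC higher, for 9 of 10 genes (13.4% of features), and those filed as KO for 7 of 10 (10.4%). On each slide that held both groups, the TAC array was above the sham array of its genotype for all 10 genes filed as KO and for 9 of 10 filed as Cre. For Thbs2 filed as Cre this held on 2 of 3 slides. How many of all features were higher after TAC on every such slide was not counted. With slide as a block the averaged rises of the 9 genes other than Cthrc1 were 0.61 (Thbs2) to 5.75 (Tnc). All 10 genes remained called in limma, the highest adjusted p being 0.041, and 15.6% of features were called higher. Scaling each array to its median in place of its 75th percentile moved the median of all features to -0.16, and Thbs2 (0.42), Sparc (0.71) and Ccn1 (1.27) were then not called, with adjusted p of 0.32, 0.24 and 0.052. Of all features, 5.11% were called higher under that scaling. In the authors' deposited value table the 10 genes were called higher too, by 0.45 (Thbs2) to 5.42 (Spp1), as were 18.4% of features. That table lacks the scanned array KO TAC replicate 4 and has a column matched to no scanned array.

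**Figure D2:**
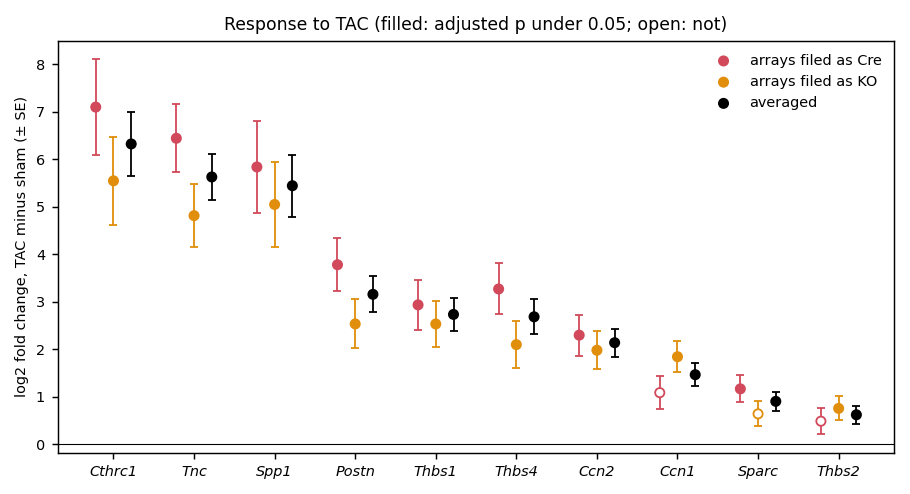
Response to TAC of each gene as log2 fold change (TAC minus sham) ± SE from limma, for arrays filed as Cre, arrays filed as KO and the average of both. Filled points have an adjusted p under 0.05. The averaged values run from 6.32 (Cthrc1, dim in most sham arrays) to 0.62 (Thbs2), and open points mark Ccn1 and Thbs2 filed as Cre and Sparc filed as KO.

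KO sham replicates 2 and 3 stood between the other sham arrays and the TAC arrays. On a scale where the Cre sham mean of a gene is 0% and its mean over the 7 TAC arrays 100%, the median of the 10 genes was 55.9% for KO sham replicate 2 and 41.8% for KO sham replicate 3. The other 6 sham arrays had medians of -10.2% to 14.6%. KO sham replicate 2 was the highest of the 8 sham arrays for 7 of 10 genes and among the 2 highest for 9, and KO sham replicate 3 was among the 2 highest for 8. KO sham replicate 4 had a median of 11.0% but stood at 75.2% for Thbs1. Among the TAC arrays, Cre TAC replicate 3 was the lowest of 7 for 7 of 10 genes, with a median of 68.6%, and its Thbs2 value was below the Cre sham mean. The 6 other TAC arrays had medians of 96.5% to 115.0%. Without KO sham replicates 2 and 3 all 10 averaged rises remained called, as were 11.8% of features called higher. Those of the 9 genes other than Cthrc1 spanned 0.69 (Thbs2) to 6.20 (Tnc). The 2 arrays were singled out for reading high in these genes, so rises that grew without them follow from that choice. Cthrc1 was then not well above background on any sham array.

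**Figure D3:**
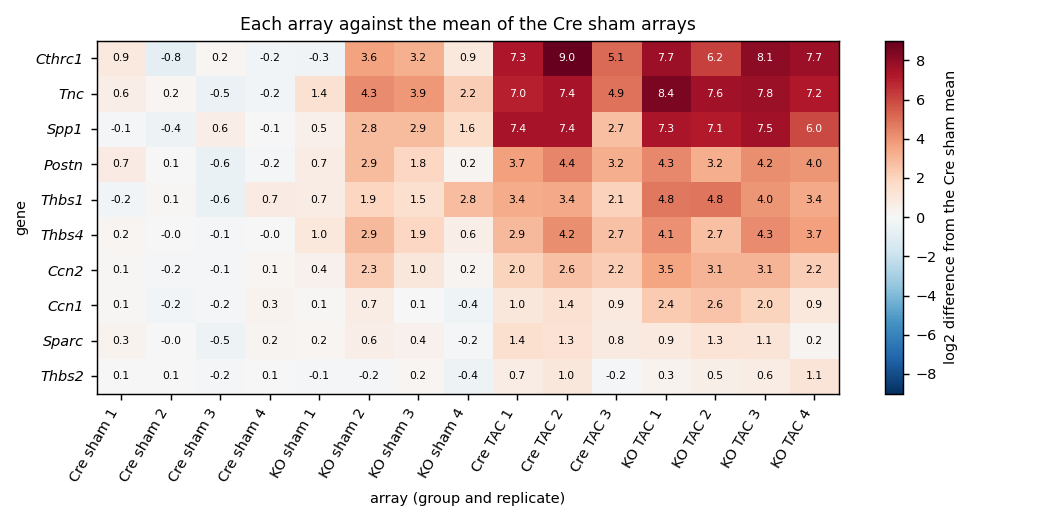
Log2 difference of each array from the mean of the 4 Cre sham arrays, with genes in rows (ordered by their averaged response) and arrays in columns. Red is above and blue below that mean. KO sham replicates 2 and 3 are red for Tnc, Cthrc1, Spp1, Postn and Thbs4, and Cre TAC replicate 3 is the lowest TAC array for 7 of 10 genes.

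The deviations of the genes from their group means were compared across 14 arrays, leaving out KO TAC replicate 4. The median Pearson correlation over pairs of the 10 genes was 0.517, with a range of 0.019 to 0.923. The points share arrays and slides, so this is a description. Postn and Thbs4 deviated most alike, and Thbs1 was the gene least like the rest (median correlation 0.207). Among all other named genes, the pattern most like Tnc was that of Nubp1 (0.952) and Tent5b (0.946), and for Spp1 that of Adam8 (0.939) and Slc41a2 (0.934). Postn was most like Nckap1l (0.965) and Dkk3 (0.962), and Cthrc1 most like Myo5a (0.956) and Col1a1 (0.946). For Thbs4 the closest were Col16a1 (0.966) and Slitrk4 (0.955), for Thbs1 Myoz1 (0.936) and Tfap2b (0.860), and for Thbs2 Snx5 (0.939) and Ankrd39 (0.923). Ccn2 was closest to Hspa1l (0.966) and Bace2 (0.942), Ccn1 to Crlf2 (0.931) and Tnip1 (0.915), and Sparc to Elovl1 (0.947). These are the highest of 14876 correlations for each gene, so high values were to be found in any case.

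Between genotypes after sham, none of the 10 genes passed the threshold, and limma called 0.0155% of features (4 of 25787). The arrays filed as KO were higher than those filed as Cre for 9 of 10 genes. The median of the 10 was 1.50 and that of all features 0.0014, and the share of features higher was not counted. In limma, 6 of the 10 had an unadjusted p under 0.05, as did 1207 features. Leaving out KO sham replicate 2 or Cre sham replicate 3 brought that count to 3, leaving out Cre sham replicate 2 brought it to 4, and dropping KO sham replicates 2 and 3 together to 2. Tnc was higher by 2.94 ± 0.66 (SE, unadjusted p = 0.00064, adjusted p = 0.49), with a 95% interval of 1.51 to 4.36. Thbs1 differed by 1.70 ± 0.48 (adjusted p = 0.65), Thbs4 by 1.59 ± 0.50 (adjusted p = 0.75) and Postn by 1.40 ± 0.51 (adjusted p = 0.89). Spp1 and Ccn2 differed by 1.95 ± 0.89 and 0.99 ± 0.40. The 4 KO sham arrays were above the 4 Cre sham arrays for Tnc, Thbs4 and Ccn2 (3 of 10 genes, against 3.76% of features). The arrays KO sham replicates 2 and 3 were singled out because they read high for these genes, so smaller differences without them follow from that choice. The values were then 1.80 ± 0.64 for Tnc, 0.78 ± 0.47 for Thbs4, 0.45 ± 0.43 for Postn, 1.06 ± 1.09 for Spp1 and 0.31 ± 0.32 for Ccn2. For Thbs1 the value stayed at 1.71 ± 0.64. Intervals of Ccn1 (-0.58 to 0.83), Sparc (-0.33 to 0.81) and Thbs2 (-0.65 to 0.43) included 0, as did that of Cthrc1 (-0.14 to 3.86). Within the 4 slides, the KO sham array was above the Cre sham array on all 4 for Tnc (by 1.58 to 4.10), Spp1, Postn, Thbs4 and Ccn2, and on 3 for Thbs1. The share of all features with that pattern was not counted. Weighting arrays by their precision, Tnc (3.19, adjusted p = 0.018), Thbs1 (1.88, adjusted p = 0.024) and Thbs4 (1.74, adjusted p = 0.045) were called, along with 1.54% of features.

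After TAC the difference between genotypes was called for 0 of 10 genes, while limma called 3.05% of features. Leaving out Cre TAC replicate 3 brought that share to 0.264% and leaving out Cre TAC replicate 1 to 0.492%, while it was between 1.51% and 4.10% without any other single array but KO TAC replicate 4. Fitted on the TAC groups alone, limma called 0 features and 0 of the 10 genes, with 1 of the 10 at an unadjusted p under 0.05. At an unadjusted p under 0.05 there were 2 of the 10 genes and 4509 features. Ccn1 was higher in arrays filed as KO by 0.88 ± 0.35 (SE, unadjusted p = 0.026, adjusted p = 0.21) and Thbs1 by 1.30 ± 0.52 (unadjusted p = 0.026, adjusted p = 0.21). For Thbs1 the 4 KO TAC arrays were above the 3 Cre TAC arrays, a pattern of 4.97% of features. Without KO TAC replicate 4, Ccn1 was called (1.22 ± 0.26, adjusted p = 0.016), 1 of 10 genes against 8.83% of features, and Thbs1 differed by 1.58 ± 0.52 (adjusted p = 0.080). In the value table, with its opposite genotype labels, Thbs1 (-1.50, adjusted p = 0.023) and Ccn1 (-1.09, adjusted p = 0.012) were called lower in arrays filed as KO there, among 12.1% of features. That table lacks the scanned array KO TAC replicate 4 and holds a column matched to no scanned array. Its TAC groups were therefore not the same arrays with labels turned. On the scanned arrays Tnc differed by 1.31 ± 0.71, with a 95% interval of -0.23 to 2.85, and Spp1 by 1.16 ± 0.96. Without Cre TAC replicate 3, Tnc differed by 0.51 ± 0.69, Spp1 by -0.39 ± 0.62 and Cthrc1 by -0.71 ± 1.01. With slide as a block, Thbs1 differed by 1.21 ± 0.55 and Ccn1 by 0.80 ± 0.33, neither called. Within the 3 slides that held both TAC groups, the KO array was above the Cre array on all 3 for Thbs1 (by 0.02 to 1.90) and on 2 for Ccn1 (-0.45 to 1.56). Neither pattern was counted over all features.

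The responses to TAC of both genotypes were compared directly as the difference of the differences. None of the 10 genes passed in limma, and 0.0116% of features did (3 of 25787). The median over all features was 0.06, and the share of features with a smaller response filed as KO was not counted. The 10 genes were read on the same arrays, so a count of signs among them is a description. The response filed as KO was smaller for 8 of 10 genes, with a median of -0.66. Without KO sham replicates 2 and 3 it was smaller for 5 of 10, with a median of -0.13, and single arrays moved the median too: to -0.33 or -0.43 on leaving out Cre TAC replicate 2 or 1, to -0.38 for KO TAC replicate 4, to -1.01 for KO sham replicate 1 and to -1.16 for Cre TAC replicate 3. Of the 10 genes, 0 had an unadjusted p under 0.05, against 1849 features. The 95% intervals ran from -3.72 to 0.47 for Tnc, from -2.88 to 0.39 for Postn and from -0.28 to 1.79 for Ccn1. They are wide, and equal responses were not shown.

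**Figure D4:**
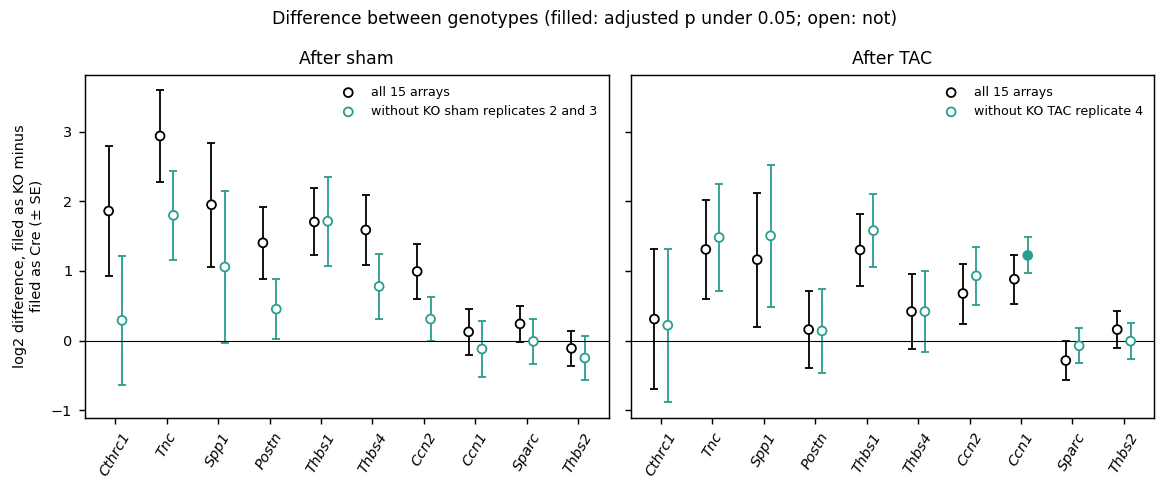
Difference between arrays filed as KO and arrays filed as Cre, as log2 ± SE from limma, after sham (left) and after TAC (right). Black points use all 15 arrays and green points leave out KO sham replicates 2 and 3 (left) or KO TAC replicate 4 (right), and a filled point has an adjusted p under 0.05. Only Ccn1 after TAC without KO TAC replicate 4 (1.22) is filled among the values drawn.

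Other genes of the matricellular system were counted in the averaged TAC comparison, where 13.3% of features were called higher and 13.7% lower. Among 30 other measured matricellular and related matrix proteins, 14 rose and 4 fell, with a median of 0.66. Spock2, a testican, rose by 1.91, Vcan, the hyaluronan-binding proteoglycan versican, by 2.63 and Fstl1, a SPARC relative, by 1.80. Thbs3, a further thrombospondin, rose by 0.65 and Ccn4, a further CCN gene, by 2.11. The 4 that fell were Ogn (-1.04), Fbln1 (-1.57), Prelp (-0.75) and Sparcl1 (-0.56), the last the closest relative of Sparc. Thbs3, Ccn4 and Sparcl1 were singled out after their values were seen. Under median scaling 8 rose and 2 fell.

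Among 29 receptors, 13 rose and 3 fell. Itga5, which forms the fibronectin receptor, rose by 1.97, Cd44, a receptor of osteopontin and hyaluronan, by 2.18 and Itgb3, which pairs with Itgav, by 2.09. The fallen were Itgb6 (-2.68), which activates latent TGF-beta, Itga8 (-1.02), a tenascin receptor, and Ptprz1 (-0.93). Of 24 proteases, inhibitors and modifiers that act on these proteins, 13 rose and 0 fell, led by Adamts1 (2.58), a protease that cleaves versican, Plaur (2.47), the urokinase receptor, and Loxl2 (2.66), a collagen crosslinker. With slide as a block the counts were 15 and 0. Under median scaling 4 receptors rose and 3 fell, and 9 proteases and modifiers rose.

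Of 25 TGF-beta ligands, activators and receptors, 8 rose and 5 fell, with a median of 0.19 that turned to -0.0049 under median scaling. Ltbp2, a matrix protein of the latent TGF-beta binding family, rose by 3.22, while Ltbp4, which anchors latent TGF-beta in the matrix, fell by 0.98. The other 4 that fell were Ltbp1 (-0.53), Smad3 (-0.72), Smad6 (-0.58) and Acvrl1 (-0.37). Among 27 YAP, TEAD and SRF factors and their other targets, 11 rose and 2 fell, but under median scaling 0 rose and 1 fell. Nuak2 and Tpm4 each rose by 0.96, below the rises of Ccn1 (1.47) and Ccn2 (2.14), while F3, which encodes tissue factor, fell by 1.08 and Vgll4, a TEAD cofactor, by 0.48. Without KO TAC replicate 4 the TGF-beta list had 10 higher and 6 lower and the YAP, TEAD and SRF list 16 higher and 3 lower.

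Marker lists of other cells were counted in the same comparison, and some rose while others did not. Of 12 measured markers of activated fibroblasts, 10 rose and 0 fell after TAC, and their mean level was 1.19 to 1.90 on Cre sham arrays, 1.85 to 3.18 on KO sham arrays, 3.1 to 4.31 on Cre TAC arrays and 3.48 to 4.11 on KO TAC arrays. KO sham replicates 2 and 3 had the highest sham values of this list, 3.18 and 2.68, and Cre TAC replicate 3 the lowest TAC value, 3.1. The lists overlap. Fn1 and Cilp, for example, stand in this list and among the other matricellular proteins, and Timp1 also among the proteases and modifiers. Fbln1 stands among the other matricellular proteins and among the general fibroblast markers that follow, and further genes are shared between lists. Of 13 markers of fibroblasts in general, 3 rose and 4 fell, with means of 2.92 to 3.14 (Cre sham), 2.90 to 3.41 (KO sham), 3.07 to 3.34 (Cre TAC) and 2.14 to 2.86 (KO TAC). The defining markers Col1a1, Col1a2, Col3a1, Pdgfra, Tcf21 and Dpt were well above background on all 15 arrays.

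Of 15 macrophage markers 4 rose and 0 fell, and without KO sham replicates 2 and 3 the number that rose was 9. Their mean level was -0.03 to 0.71 (Cre sham), 0.41 to 1.56 (KO sham), 1.24 to 2.18 (Cre TAC) and 1.28 to 1.72 (KO TAC). KO sham replicates 2 and 3, at 1.56 and 1.46, lay inside the TAC range, so leaving them out lowered the sham mean of this list. Of 9 neutrophil markers 6 rose and 0 fell, with means of -6.51 to -5.23 (Cre sham), -6.30 to -3.43 (KO sham), -3.82 to -2.46 (Cre TAC) and -2.49 to -0.58 (KO TAC). Here KO sham replicate 2 was among the lowest arrays at -6.30, and the highest sham array was KO sham replicate 4 at -3.43, which was also the sham array highest for Thbs1. The defining markers Adgre1, Csf1r, S100a8, S100a9 and Csf3r were well above background on all 15 arrays.

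Of 12 epicardial and mesothelial markers 11 rose, with means of -3.67 to -2.38 (Cre sham), -4.48 to -2.27 (KO sham), -0.37 to -0.09 (Cre TAC) and -1.21 to -0.08 (KO TAC). KO sham replicate 3 was the lowest array of this list. Of 10 cell division genes 8 rose. Heart muscle markers had 0 higher and 3 lower of 15, endothelial markers 1 and 4 of 14, and smooth muscle and pericyte markers 5 and 5 of 13. Platelet markers had 1 higher of 9, while adipocyte, lymphocyte and red cell markers had 0 higher and 3 of 9, 5 of 12 and 3 of 6 lower. Under median scaling the endothelial, red cell and platelet markers had 0 calls, and of the smooth muscle and pericyte markers 0 rose and 1 fell. The part of these cells in the matricellular results was not tested.

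**Figure D5:**
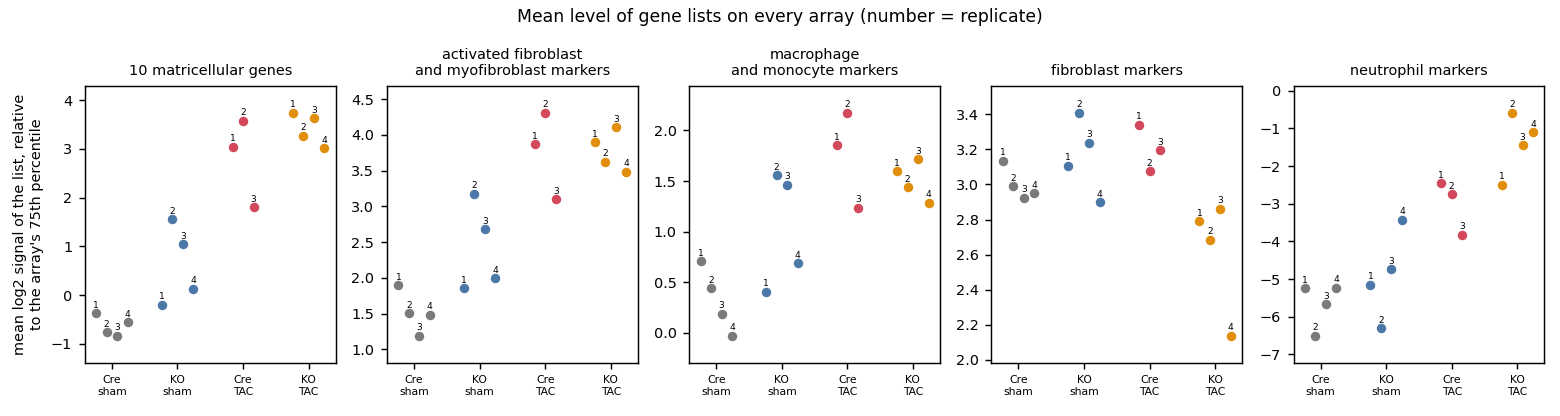
Mean level on every array of the 10 matricellular genes and of 4 marker lists, as mean log2 signal relative to the array's 75th percentile, with arrays as points, replicate numbers beside them and 4 groups along the x axis. KO sham replicates 2 and 3 are the highest sham arrays for the matricellular genes, activated fibroblast markers and macrophage markers, while KO sham replicate 4 is the highest sham array for neutrophil markers.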

How the data were processed

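RNA was amplified and labelled with Cy3 for Agilent mouse arrays read in 1 colour, per the labels' protocols. The spot intensity used is the background-subtracted processed signal of Feature Extraction (version 10.7.3.1), per the file headers. The authors also deposited log2 values, with column medians of 7.22 to 7.23; their background treatment is not stated in these sources. The submitters' processing notes name limma. Groups follow title and source name.

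Control spots and outlier-flagged spots were left out and spots of a probe averaged (41174 probes). Accessions were named through RefSeq (GRCm38.p6), which gave symbols to 24844 probes. Each array's 75th percentile was subtracted from the log2 signals. Probes well above background on 3 or more arrays entered (32511); a gene took its brightest probe, giving 25787 features. All 15 arrays entered one fit of 4 groups in limma 3.58.1 (R 4.3.3), with Benjamini-Hochberg adjustment over all features and calls at an adjusted p under 0.05. The fit was tested on simulated data. Nothing in the labels excludes shared handling, so p-values measure only the spread between these samples, and the number of arrays limits precision. No probe was saturated.

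All 10 members are described with every array. From each pathway list the 3 genes of smallest p are named, and every gene that fell where 5 or fewer did; 2 most alike genes are named per member. Some genes that these rules would name are not reported here. The members and lists were chosen with earlier results of these data known. Arrays lay on 4 slides, scanned on 1 day, which were tried as a block; other alternatives were other scalings, filters, weights, variance settings, the authors' values, single arrays left out and the description field. Leaving out KO sham replicates 2 and 3 together, also with KO TAC replicate 4, and leaving out arrays in the bounds, were chosen after seeing the data. Figures used Python 3.11.15, pandas 2.3.3 and matplotlib 3.10.9.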

Additional observations from a re-analysis of the deposited data

Results flagged for a closer look

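In 1 of 30 checks of groups of 4 arrays, an array of a matricellular gene stood far from its group. Cre sham replicate 3 read Thbs2 at -0.66, while the other Cre sham arrays read -0.43 to -0.42. Its gap to the nearest of them was 0.93 of the whole range of the group, above the 95% critical value of Dixon's test. Chance gives about 1 such array in 20 groups.

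The deposited value table has a column, labelled KO TAC 4, for which no scanner file was matched and which entered no fit of the scanner values. In that column 9 of the 10 matricellular genes were above every sham column, and all 10 lay within the range of the other TAC columns. The exception was Thbs2, at 9.57 against at most 9.57 in the sham columns. Tnc read 11.9 there, against 5.77 to 9.29 in sham columns, and Cthrc1 read 10.2, against 4.89 to 6.76 (the authors' log2 values).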

How the results depend on the processing

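Grouped by the description field, 0 genes were called for TAC averaged, filed as Cre or filed as KO. Averaged, Thbs2 was then at -0.31 and Sparc at -0.032. Filed as Cre, Postn was at -0.042, Thbs1 at -0.052, Thbs4 at -0.093, Sparc at -0.18 and Cthrc1 at -0.28, and filed as KO Thbs2 was at -0.35. Leaving out single arrays gave 9 to 10 calls for TAC averaged, 6 to 9 filed as Cre and 8 to 9 filed as KO. The shares of features called higher were 9.92% to 18%, 1.38% to 7.93% and 7.86% to 14.8%. Between genotypes it gave 0 calls after sham (0.0155% to 0.031% of features) and 0 to 1 after TAC (0.264% to 8.83%). For the difference of responses it gave 0 (0% to 0.12%). Median scaling gave 5 calls filed as KO, where 2.98% of features were called higher. For genotype after sham, array weights gave 3 calls (1.54% of features). For genotype after TAC, 1 was called under normexp with quantile normalization (5.46% of features), under array weights (13.3%) and without KO TAC replicate 4, without (8.83%) or with the slide block (16.4%), and 2 without KO sham replicates 2 and 3 and KO TAC replicate 4 (8.23%). The authors' values also gave 2 (12.1% of features), Thbs1 at -1.50 and Ccn1 at -1.09, their signs turned by the table's labels. These values lack the scanned array KO TAC replicate 4 and include the column matched to no scanner file. The cause of changes other than these signs was not tested. Over 1894 other values of single genes, description field aside, 1829 kept their side of the threshold. That total includes the genotype and difference-of-response comparisons, where no gene was called at first, and 51 uncalled values whose sign changed. TAC averaged lost 6 calls among 309 values. Filed as Cre, 8 were lost and 9 gained among 319, and filed as KO 24 were lost and 7 gained among 319.

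Same-numbered arrays did not in general deviate together (median correlation -0.062, range -0.385 to 0.528, over 21 pairs, against a median of 0.279 for arrays of 1 slide). Of 15 arrays, 5 correlated best with their own number. Pairing by number was not seen, but these values cannot exclude it. With the replicate number as a block, 10, 7 and 8 of 10 genes were called for TAC averaged, filed as Cre and filed as KO, against 24%, 3.63% and 20.4% of features called in either direction. Dim signal limits Cthrc1 and the second probes of Tnc and Thbs1 in Cre sham arrays. The brighter probe of Tnc was well above background there, but its processed signal was only 21.67 to 46.36.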
